A study of Mus musculus with 7 samples.

Results

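The retinoid binding and metabolism genes described here are 9 genes that carry vitamin A, store it, convert it to retinoic acid or respond to it. They are Rbp4, Stra6, Rbp2, Lrat, Aldh1a1, Aldh1a2, Aldh1a3, Crabp2 and Rarb, taken by symbol from the 24328 gene symbols of the kidney RNA-seq data, and all 9 were found there. Kidneys of 3 LBR-null mice, numbered 4001, 4002 and 4007, were compared with the kidney of 1 WT littermate, mouse 4009, in order to ask what loss of the lamin B receptor (LBR), an inner nuclear membrane protein that binds heterochromatin, does to gene expression. LBR-null mice were homozygous for the loss-of-function allele (genotype Lbric-J/ic-J), the WT mouse was Lbr+/+, and all were C57BL/6J mice on standard chow, sacrificed at 4 weeks of age. The mutation is inherited, so every cell of an LBR-null mouse carries it. Poly(A) RNA of the right kidney gave 2 libraries each for mice 4001, 4007 and 4009 and 1 library for mouse 4002.

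Vitamin A reaches tissues as retinol bound to RBP4, a carrier that the liver secretes, and enters cells partly through the membrane receptor STRA6. Inside cells retinol is held by cellular binding proteins such as RBP2, stored as an ester by LRAT, or oxidized to retinal and then, by the ALDH1A enzymes, to retinoic acid, which CRABP2 carries to nuclear receptors such as RARB. The kidney filters RBP4 and takes it back in the proximal tubule through megalin, and retinoic acid is known for guiding the development of the kidney.

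The promoters of Rbp2 and Rarb are shown because Rbp2 had the largest difference between the groups and Rarb is a classical retinoic acid target. Each stretch is the 250 bases before a transcript start in RefSeq, 5′ to 3′ on the gene's strand (GRCm38.p6), and each matched its mm9 chromosome at 1 place. Capitals mark the hexamer bound by retinoic acid receptors, searched on both strands in its common form AGGTCA and as the variants GGGTCA (first base changed), AGTTCA (a later base changed) and GGTTCA (both changed). The Rbp2 stretch lies at chr9:98390706-98390955 on the plus strand and the Rarb stretch at chr14:17407991-17408240 on the minus strand of mm9. The Rbp2 start is that of the gene model used below, whereas the Rarb start is an internal one, inside the longer span of the Rarb model.
Rbp2: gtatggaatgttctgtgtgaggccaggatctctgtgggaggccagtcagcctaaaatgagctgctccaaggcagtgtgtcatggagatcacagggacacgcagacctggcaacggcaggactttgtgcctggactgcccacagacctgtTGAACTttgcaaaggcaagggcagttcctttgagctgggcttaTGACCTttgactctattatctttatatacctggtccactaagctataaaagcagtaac
Rarb: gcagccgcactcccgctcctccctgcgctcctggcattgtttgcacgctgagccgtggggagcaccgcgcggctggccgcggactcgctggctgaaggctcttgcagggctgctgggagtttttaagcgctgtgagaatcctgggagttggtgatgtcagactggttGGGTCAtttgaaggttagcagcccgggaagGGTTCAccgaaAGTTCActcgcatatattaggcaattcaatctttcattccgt
The Rarb stretch held 3 hexamers, and 2 of them formed a direct repeat with 5 bases between, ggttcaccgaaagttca, which began 53 bases before that start. The Rbp2 stretch held 2 hexamers and no direct repeat with 1, 2 or 5 bases between. Among 32807 promoter windows of the same length, 38.6% held at least 1 hexamer and 0.0884% held a direct repeat with 5 bases between. A match of letters is a description and not a site of binding. Of the 9 genes, 7 were matched to a promoter in the RefSeq table, all but Aldh1a3 and Crabp2. Over the same 250 bases Rbp2 had a GC content of 50.0% and an observed over expected CpG ratio of 0.129, against medians of 52.4% and 0.373 over all windows. Rarb had 58.0% and 0.767.

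Values are read counts divided by the size factor of the library (normalized counts), and 1 read was worth 0.7875 to 1.148 normalized counts. The libraries held 20694016 to 26333284 reads on genes. Libraries were averaged within each mouse and mice served as replicates, so how much WT mice differ from each other is unknown. Lbr itself was at 377.7 ± 81.8 normalized counts (SD, n = 3 mice) in LBR-null mice and at 398.3 in the WT mouse, and counts over the whole gene do not check the genotype. Sex is not given in the labels. Mice 4001 and 4007 had much Xist, the RNA that coats an inactive X chromosome (5785 and 9940 normalized counts), while mouse 4002 and the WT mouse had little (65.3 and 35.5). Ddx3y, a gene of the Y chromosome, was at 141 and 44.3 in mice 4001 and 4007, and at 1516 and 1284 in mouse 4002 and the WT mouse. Mouse 4002 is therefore the LBR-null mouse most like the WT mouse in these 2 genes, and its values for the 9 genes are given apart from the others. Mice 4001 and 4007 had reads of both. All 9 kidney markers examined were above 0 in every library, and 4 of the 9 were at least 2-fold lower in LBR-null kidneys. Their summed level was 186700 to 406200 normalized counts in LBR-null libraries and 569300 and 588900 in WT libraries, carried largely by Kap. Without Kap it was 213200 and 229900 in mouse 4001, 200400 in mouse 4002, 126100 and 129300 in mouse 4007, and 222300 and 221600 in the WT libraries.

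The 9 genes were selected on these same values, chosen by their differences between LBR-null and WT kidneys, so their values are a description and carry no test. By the ratio of mean normalized counts, which is the basis of the 2-fold counts given without a test, Rbp2 was the one gene at least 2-fold higher in LBR-null kidneys and Aldh1a3 the one gene at least 2-fold lower. Crabp2 was past 2-fold lower only as a mean of log2 values (-1.29). Among 21468 genes above 0 in either group, 22.7% were at least 2-fold higher and 8.8% at least 2-fold lower. Among the 17283 genes with a mean of at least 5 normalized counts, which all 9 genes passed, the shares were 14.5% and 7.04%. In 1 gene (Rbp2) every LBR-null library lay above both WT libraries, which held for 25.5% of those 17283 genes, and in 2 genes (Aldh1a3 and Crabp2) every LBR-null library lay below both, which held for 25.7%. The other 6 genes overlapped between the groups. The median log2 difference of the 9 genes, LBR-null minus WT on log2(normalized count + 1), was 0.32, against 0.01 for all genes tested. Nothing is read from these counts, since the choice of the genes used the same comparison.

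**Figure D1:**
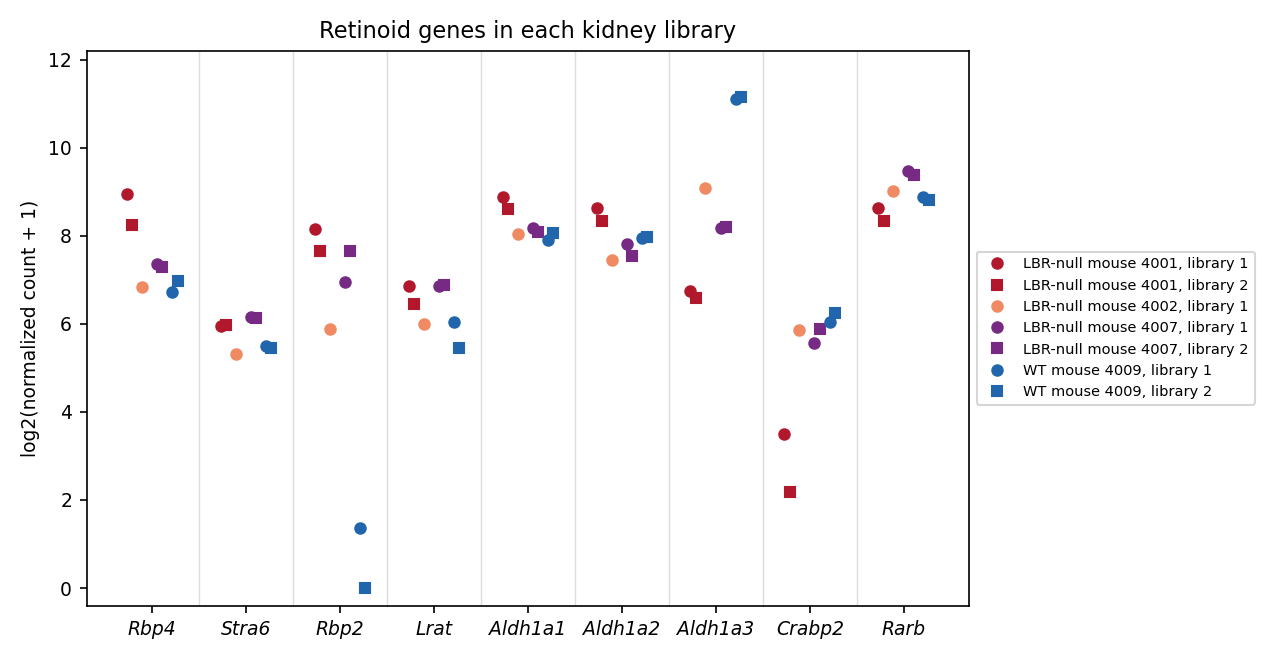
Level of the 9 retinoid genes in each library, as log2(normalized count + 1), with 1 point per library, circles for library 1 and squares for library 2 of a mouse. The WT points of Rbp2 lie far below the LBR-null points and those of Aldh1a3 far above them, and Crabp2 is lowest in mouse 4001.

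**Figure D2:**
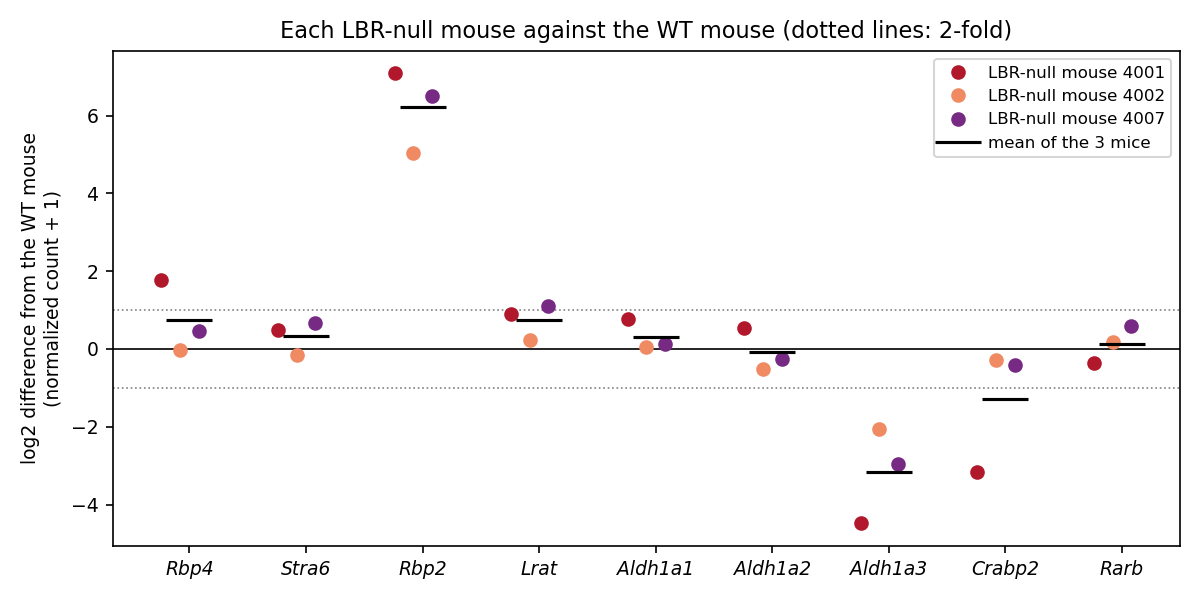
Difference of each LBR-null mouse from the WT mouse on log2(normalized count + 1), with 1 point per mouse, a line at the mean of the 3 mice and dotted lines at 2-fold. The differences of Rbp2 run from 5.04 to 7.09 and those of Aldh1a3 from -4.48 to -2.06, while Rbp4, Stra6, Aldh1a2 and Rarb have mice on both sides of 0.

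Rbp4, the plasma carrier of retinol (mm9 chr19:38191110-38199811), was high in 1 LBR-null mouse. It was at 492.6 and 302.6 normalized counts in the libraries of mouse 4001, 112.6 in mouse 4002, 163.0 and 155.9 in mouse 4007, and 104.7 and 124.8 in the WT libraries. Mouse 4001 stood above all others, mouse 4007 lay above both WT libraries by less than the distance between the libraries of mouse 4001, and mouse 4002 lay between the WT libraries. The mean of LBR-null mice, 223.2 ± 152.8 (SD, n = 3), was 1.945 times the WT value of 114.8, just under the 2-fold limit. Without mouse 4001 the log2 difference went from 0.74 to 0.22.

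Rbp4 and the hepatocyte markers were both highest in mouse 4001, and Rbp4 and the marker sum differed in mouse 4002. The liver secretes RBP4, albumin, apolipoproteins and fibrinogen alike. The summed level of the 7 hepatocyte markers in the files (of 8 listed) was 24270 and 16360 normalized counts in mouse 4001, 7730 in mouse 4002, 8787 and 8515 in mouse 4007, and 3617 and 3664 in the WT libraries. All 7 were at least 2-fold higher on average in LBR-null kidneys. For Alb, Ahsg and Cps1 the higher mean came mainly from mouse 4001. Albumin (Alb) was at 11130 and 6385 in mouse 4001, 2245 in mouse 4002, 1589 and 1503 in mouse 4007, and 1559 and 1571 in WT. In mouse 4002 the hepatocyte sum was above both WT libraries while Rbp4 was not. Most of the sum in mice 4002 and 4007 was Serpina1a (alpha-1 antitrypsin). In both mice Serpina1a, Apoa1, Apoa2 and Fgb lay above both WT libraries. Cps1 lay between the WT libraries in both, at 87.7 in mouse 4002 against 73.2 and 101.3. Ahsg was at 124.8 and 137.6 in mouse 4007 against 125.2 and 137.5 in WT. Within mouse 4001 the library with more Alb was also the library with more Rbp4. Serpina1a was at 5843 ± 1560 (SD, n = 3) in LBR-null mice against 1369 in WT, with mouse 4002 at 4395. Whether liver RNA, or another source, had a part in the Rbp4 values was not tested. In bulk kidney, a change in the number of cells of a type and a change in RNA per cell cannot be told apart.

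**Figure D3:**
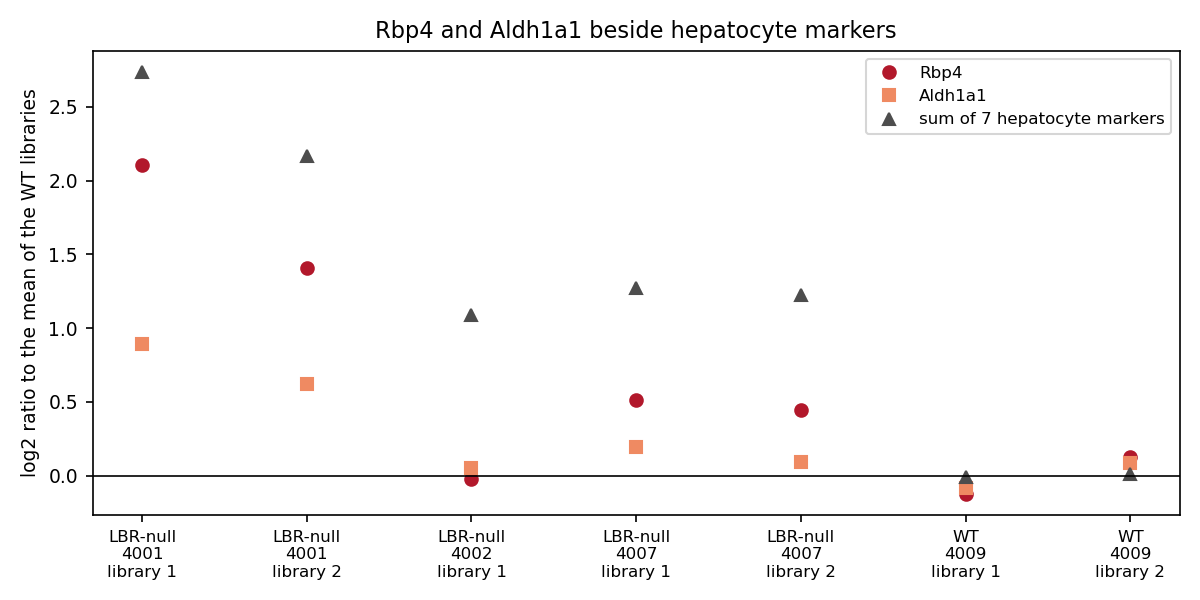
Log2 ratio of Rbp4, of Aldh1a1 and of the summed 7 hepatocyte markers to the mean of the WT libraries, with 1 point per library. All 3 are highest in library 1 of mouse 4001, followed by library 2 of that mouse.

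Stra6, the receptor that takes retinol from RBP4 (mm9 chr9:57911595-58001803), was among the lowest of the genes. It was at 60.9 and 62.1 normalized counts in mouse 4001, 38.7 in mouse 4002, 69.8 and 69.3 in mouse 4007, and 44.1 and 42.5 in the WT libraries. Mice 4001 and 4007 lay above WT and mouse 4002 lay below it. The mean of 56.6 ± 16.0 (SD, n = 3) was 1.306 times the WT value of 43.3. The libraries of a mouse differed by at most 1.037-fold in Stra6, less than the mice did.

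Rbp2, also known as cellular retinol binding protein II, is the retinol binding protein of absorptive cells in the small intestine (mm9 chr9:98390956-98410190). It was nearly absent from the WT kidney and was found in each LBR-null library. It was at 284.8 and 198.8 normalized counts in mouse 4001, 57.6 in mouse 4002, 122.9 and 199.6 in mouse 4007, and 1.6 and 0.0 in the WT libraries. In reads this was 248, 224, 67, 132 and 219 in the LBR-null libraries and 2 and 0 in the WT libraries. The lowest LBR-null library, that of mouse 4002, thus held 67 reads, and the groups did not overlap. Over all libraries of a group there were 890 and 2 reads, a ratio of 196 per read on genes, with a 95% interval of 54.0 to 1620 that covers counting error only. Among LBR-null mice, the highest was 4.197 times the lowest, so the mice differed among themselves by more than the libraries of mice 4001 and 4007, whose larger ratio was 1.624. The difference from WT was present in mouse 4002, which resembled WT in Xist and Ddx3y, at 5.04 on the log2 scale, and was 6.50 in mouse 4007 and 7.09 in mouse 4001. The mean log2 difference of 6.21 depends on the 1 normalized count added to each value, since WT held 2 reads.

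Markers of the intestinal epithelium were mixed. Of 8 enterocyte markers, 3 were at least 2-fold higher on average in LBR-null kidneys (Fabp2, Sis and Cdx2) and 1 (Apoa4) at least 2-fold lower. Alpi, the intestinal alkaline phosphatase, was at 0 in all 7 libraries, and Fabp2, the intestinal fatty acid binding protein, had at most 4 reads in any library. Sis also rested on few reads, 1 to 9 in the LBR-null libraries and 1 and 0 in the WT libraries. Cdx2, an intestinal transcription factor, was at 29.9 ± 3.94 normalized counts (SD, n = 3) in LBR-null mice and 3.38 in WT. The summed level of the 8 markers, most of it Vil1, was 1509 to 2409 in LBR-null libraries and 3252 and 3344 in WT libraries.

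The genes whose pattern over the 7 libraries was most like that of Rbp2 were Hdgfrp3, Calcoco1 and Grb7, with a Pearson correlation of log2(normalized count + 1) of 0.999, 0.998 and 0.997. Each was expressed in WT kidney, and the range was narrow. Hdgfrp3 ran from 550.3 to 672.9 normalized counts in LBR-null libraries and was at 372.5 and 329.3 in WT. The correlation is over 7 libraries of 4 mice and takes no account of the size of the difference. For Rbp4 the closest were Polr1d, Exosc9 and Mpdu1, each at 0.997.

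Lrat, which joins retinol to a fatty acid for storage (mm9 chr3:82696501-82707895), was highest in mice 4001 and 4007. It was at 114.8 and 87.0 normalized counts in mouse 4001, 62.8 in mouse 4002, 115.5 and 116.7 in mouse 4007, and 64.6 and 42.5 in the WT libraries. In Lrat, 4 of the 5 LBR-null libraries lay above WT, and mouse 4002 lay between the WT libraries, which themselves differed by 1.519-fold. The mean was 93.2 ± 27.5 (SD, n = 3), 1.741 times the WT value of 53.5. Over the 7 libraries the Pearson correlation of Lrat was 0.89 with Stra6 and 0.87 with Rbp2. These are a description, since libraries of a mouse are not independent.

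Aldh1a1, Aldh1a2 and Aldh1a3 encode the enzymes that make retinoic acid from retinal, and Aldh1a3 was the one of the 3 that separated the groups. Aldh1a3 (mm9 chr7:73535778-73572403) was at 105.6 and 94.95 normalized counts in mouse 4001, 540.0 in mouse 4002, 289.6 and 290.8 in mouse 4007, and 2218 and 2288 in the WT libraries. Every LBR-null library was below the WT libraries by a wide margin. The WT value of 2253 was 7.265 times the LBR-null mean of 310.1 ± 220.5 (SD, n = 3). The LBR-null mice differed among themselves by 5.384-fold, and the log2 difference from WT was -4.48 for mouse 4001, -2.06 for mouse 4002 and -2.95 for mouse 4007. Libraries of the same mouse differed by at most 1.113-fold. Aldh1a3 and Rbp2 ran opposite over the 7 libraries, with a Pearson correlation of -0.94, and the WT libraries were at the far end of both. Both genes were chosen by their differences between these groups, so no link between them is read from this value. Libraries of a mouse are also not independent.

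Aldh1a1 (mm9 chr19:20676451-20717952) was at 468.5 and 387.8 normalized counts in mouse 4001, 260.5 in mouse 4002, 288.7 and 268.9 in mouse 4007, and 237.8 and 266.9 in the WT libraries. Only mouse 4001 stood clear of WT. The LBR-null mean was 322.5 ± 91.9 (SD, n = 3) against 252.3. The correlation of Aldh1a1 with Rbp4 over the libraries was 0.99, as a description only. Aldh1a1 has a closely related copy beside it, Aldh1a7, and how reads that match both were assigned is not given in the sources used here, so both levels are uncertain. Aldh1a7 was at 89.5 ± 16.0 (SD, n = 3) in LBR-null mice and 125.4 in WT, a log2 difference of -0.50 ± 0.38 (SE) with an adjusted p of 0.528 by limma with Benjamini-Hochberg adjustment over all genes tested.

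Aldh1a2 (mm9 chr9:71063596-71144050) was at 396.1 and 323.0 normalized counts in mouse 4001, 173.7 in mouse 4002, 225.4 and 184.1 in mouse 4007, and 244.9 and 250.6 in the WT libraries. Mouse 4001 lay above WT and the other two LBR-null mice below it. The LBR-null mean, 246.0 ± 99.6 (SD, n = 3), and the WT value, 247.7, differed by far less than the mice did.

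Crabp2, which carries retinoic acid to its receptors (mm9 chr3:87752588-87757298), was lower in LBR-null kidneys mainly through mouse 4001. It was at 10.3 and 3.5 normalized counts in mouse 4001 (9 and 4 reads), 56.7 in mouse 4002, 46.6 and 58.3 in mouse 4007, and 64.6 and 75.1 in the WT libraries. All LBR-null libraries lay below WT, with the highest of them just under the lower WT library. The WT value of 69.8 was 1.804 times the LBR-null mean of 38.7 ± 27.6 (SD, n = 3). Without mouse 4001 the log2 difference went from -1.29 to -0.35. Rarb, a receptor for retinoic acid (mm9 chr14:17263356-17651381), was at 393.8 and 323.9 in mouse 4001, 520.2 in mouse 4002, 707.8 and 669.9 in mouse 4007, and 473.3 and 447.8 in WT. Mouse 4001 lay below WT and the other two above. The LBR-null mean was 522.6 ± 165.0 (SD, n = 3) against 460.5 in WT. Thus mouse 4001 was the lowest of the 3 LBR-null mice in Aldh1a3, Crabp2 and Rarb and the highest in Rbp4, Rbp2, Aldh1a1 and Aldh1a2.

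Levels can be compared roughly between genes per length of exon (normalized counts per kb of exon, GENCODE models of mm9). The annotation used for counting is not given, so these lengths may differ from those counted. The Stra6 model starts at 57911595, ahead of every RefSeq promoter window of Stra6, the first at 57976645, so its level is the less certain. In the WT kidney Aldh1a3 led with 488.2 per kb. Rarb (139.9), Aldh1a1 (122.9), Aldh1a2 (109.4) and Rbp4 (88.5) formed a middle group, Crabp2 followed at 52.8, and Lrat (10.01), Stra6 (7.43) and Rbp2 (1.17) were lowest. In LBR-null kidneys the order of the means was Rbp2 (228.5), Rbp4 (172.1), Rarb (158.7), Aldh1a1 (157.1), Aldh1a2 (108.7), Aldh1a3 (67.2), Crabp2 (29.3), Lrat (17.4) and Stra6 (9.71). The first 5 overlapped from mouse to mouse. Rbp2 ranged from 85.7 per kb in mouse 4002 to 359.8 in mouse 4001, and Rbp4 from 86.8 to 306.6. By the mean of the LBR-null mice Rbp2 was the highest of the 9, but in mouse 4002 it was below Rarb (158.0), Aldh1a1 (126.9) and Aldh1a3 (117.0) and level with Rbp4.

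**Figure D4:**
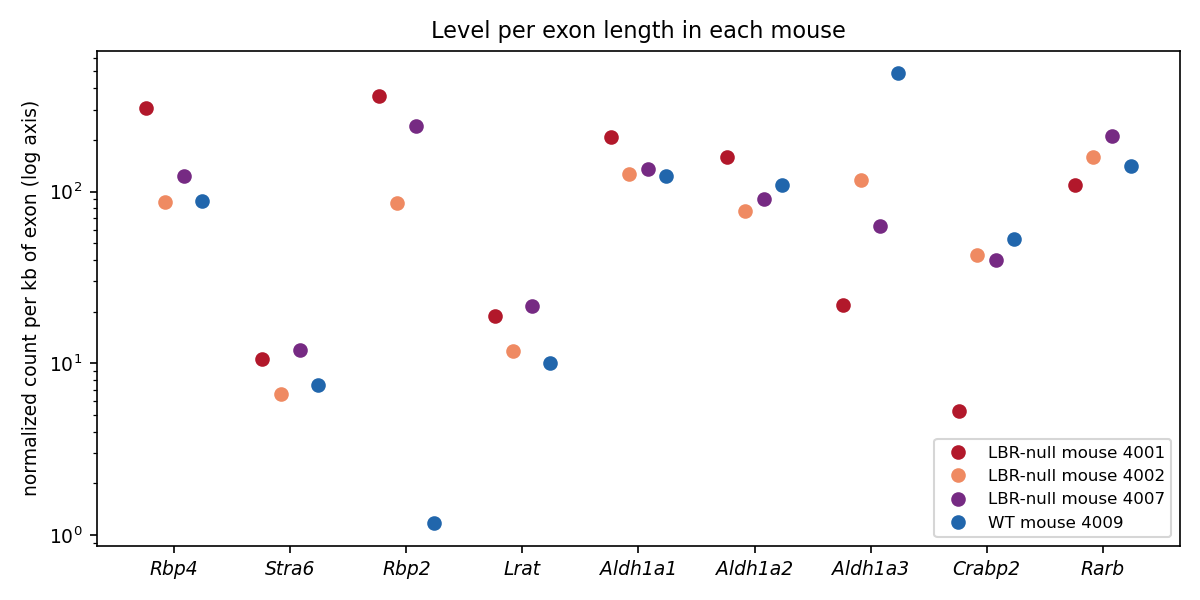
Normalized counts per kb of exon for the 9 genes in each mouse, on a log axis, with libraries averaged within a mouse. In the WT mouse Aldh1a3 is highest (488.2) and Rbp2 lowest (1.17), and in mice 4001 and 4007 Rbp2 is the highest of the 9.

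The nearest coding gene on each side of each of the 9 genes was examined, since position had no part in their choice. Of the 18 neighbours, 3 were at least 2-fold higher on average in LBR-null kidneys and 3 at least 2-fold lower, beside the shares of 22.7% and 8.8% over all genes. The higher neighbours were Pde6c beside Rbp4 (12.8 against 2.09), Aqp9 beside Aldh1a2 (27.6 against 12.0) and Fgg, a fibrinogen chain, beside Lrat (1012 against 181.0). The lower ones were Cep55 beside Rbp4 (7.06 against 52.8), Islr beside Stra6 (245.2 against 509.8) and Nes beside Crabp2 (674.0 against 1552). Fgg was at 300.9 in mouse 4002 and at 1221 to 1694 in the other LBR-null libraries. No other gene model of the annotation shared exon bases with any of the 9 genes.

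The other genes of the retinoid pathway were read from 6 lists that hold 68 genes, of which 59 had a mean of at least 5 normalized counts. By limma with Benjamini-Hochberg adjustment, at an adjusted p under 0.05 and a 2-fold difference, 0 of the 59 were called, as were 0.0% of the 17283 genes tested. At an unadjusted p under 0.05, 2 of the 59 (3.39%) were higher and 15 (25.4%) lower in LBR-null kidneys, against 10.7% and 8.05% of all genes tested. On average 7 (11.9%) of the 59 were at least 2-fold higher and 11 (18.6%) at least 2-fold lower, beside 14.5% and 7.04% of all. In 10 (16.9%) every LBR-null library lay above both WT libraries and in 22 (37.3%) below both, beside 25.5% and 25.7% of all, and the median log2 difference was -0.12. edgeR on reads summed per mouse called 0 pathway genes, where it called 0.00579% of all genes as higher and 0.156% as lower. DESeq2 called 5, where it called 3.24% as higher and 3.48% as lower: Pnpla2 higher and Rdh1, Lrp2, Aldh8a1 and Dhrs4 lower. Without mouse 4001, limma called 11 pathway genes, 2 higher and 9 lower, and 1163 genes in all. The higher ones were Pnpla2 and Cyp26b1. The lower ones were Lrp2, Cubn, Amn, Rdh1, Rdh10, Rdh19, Dhrs4, Aldh8a1 and Tgm2. Without mouse 4002 it called 0 pathway genes and 625 in all, and without mouse 4007 it called 0 of either. The number of pathway genes called thus turned both on the tool and on mouse 4001.

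Among 13 genes of transport and uptake, 11 were tested, and 3 were lower, with 0 higher, past the unadjusted limit of 0.05. These 3 are the endocytic receptors of the proximal tubule and their partner. Slc34a1, a phosphate transporter of the same tubule segment, was also lower in every LBR-null library, at 14030 to 29140 normalized counts against 65170 and 63020 in WT, and its part in these differences was not tested. Lrp2 (megalin), which takes up filtered RBP4, was at 11440 and 12520 normalized counts in mouse 4001, 7019 in mouse 4002, 5722 and 5398 in mouse 4007, and 23310 and 23330 in WT. All LBR-null libraries were below WT, and the log2 difference was -1.59 ± 0.47 (SE), with an adjusted p of 0.152 by limma. Cubn (cubilin) differed by -0.98 ± 0.38 (SE, adjusted p = 0.240 by limma) and Amn (amnionless) by -0.93 ± 0.28 (SE, adjusted p = 0.156 by limma). Ttr, the plasma partner of RBP4, was at 4474 and 3534 in mouse 4001, 4129 in mouse 4002, 1577 and 1707 in mouse 4007, and 2882 and 3053 in WT. The LBR-null mice lay on both sides of WT in Ttr, with a log2 difference of 0.02 ± 0.54 (SE).

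Among 10 genes of retinyl ester and carotenoid handling, 9 were tested, and at an unadjusted p under 0.05 there was 1 higher and 1 lower. Pnpla2, a lipase of lipid droplets, was at 8730 and 8606 normalized counts in mouse 4001, 6176 in mouse 4002, 8858 and 9463 in mouse 4007, and 3048 and 2998 in WT. All LBR-null libraries were above WT, with a log2 difference of 1.38 ± 0.33 (SE) and an adjusted p of 0.115 by limma. Bco1, which cleaves beta-carotene to retinal, differed by -1.15 ± 0.41 (SE, adjusted p = 0.208 by limma).

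The list of retinol and retinal oxidation or reduction held 24 genes, 21 tested, of which 8 were lower, and 0 higher, past the unadjusted limit of 0.05. Of these 8, the 4 with the largest differences were Adh7 (-1.91 ± 0.57), Rdh1 (-1.87 ± 0.48), Rdh19 (-1.83 ± 0.74) and Rdh5 (-1.15 ± 0.35), as log2 differences ± SE, with adjusted p-values by limma of 0.153, 0.123, 0.256 and 0.161. Adh7 rested on few reads, 3 to 9 in the LBR-null libraries. Rdh1 was at 18.4 and 31.9 normalized counts in mouse 4001, 45.6 in mouse 4002, 40.1 and 39.2 in mouse 4007, and 131.5 and 134.8 in WT. Rdh10, which oxidizes retinol to retinal ahead of the ALDH1A step, was at 639.6 and 585.7 in mouse 4001, 417.0 in mouse 4002, 356.7 and 367.3 in mouse 4007, and 885.1 and 976.1 in WT. The log2 difference of Rdh10 was -1.04 ± 0.35 (SE, adjusted p = 0.186 by limma). Other tested genes of the list went the other way without passing that limit, of which Rdh7 and Adh4 are named after their values were seen, with every LBR-null library above WT. Their log2 differences were 1.42 ± 0.75 and 1.35 ± 0.57 (SE), with adjusted p-values by limma of 0.366 and 0.273. Adh4 too rested on few reads, 10 to 19 in the LBR-null libraries and 6 and 4 in the WT libraries. Dhrs3, which reduces retinal back to retinol, differed by 0.32 ± 0.27 (SE, adjusted p = 0.574 by limma). The list of oxidation and reduction thus held 8 of the 15 lower genes, and it also held 21 of the 59 pathway genes tested. Of its tested genes 38.1% were lower, beside 8.05% of all genes tested. None of the 15 was past the adjusted limit in limma with all mice. These dehydrogenases belong to families of close copies among which reads can be hard to assign.

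**Figure D5:**
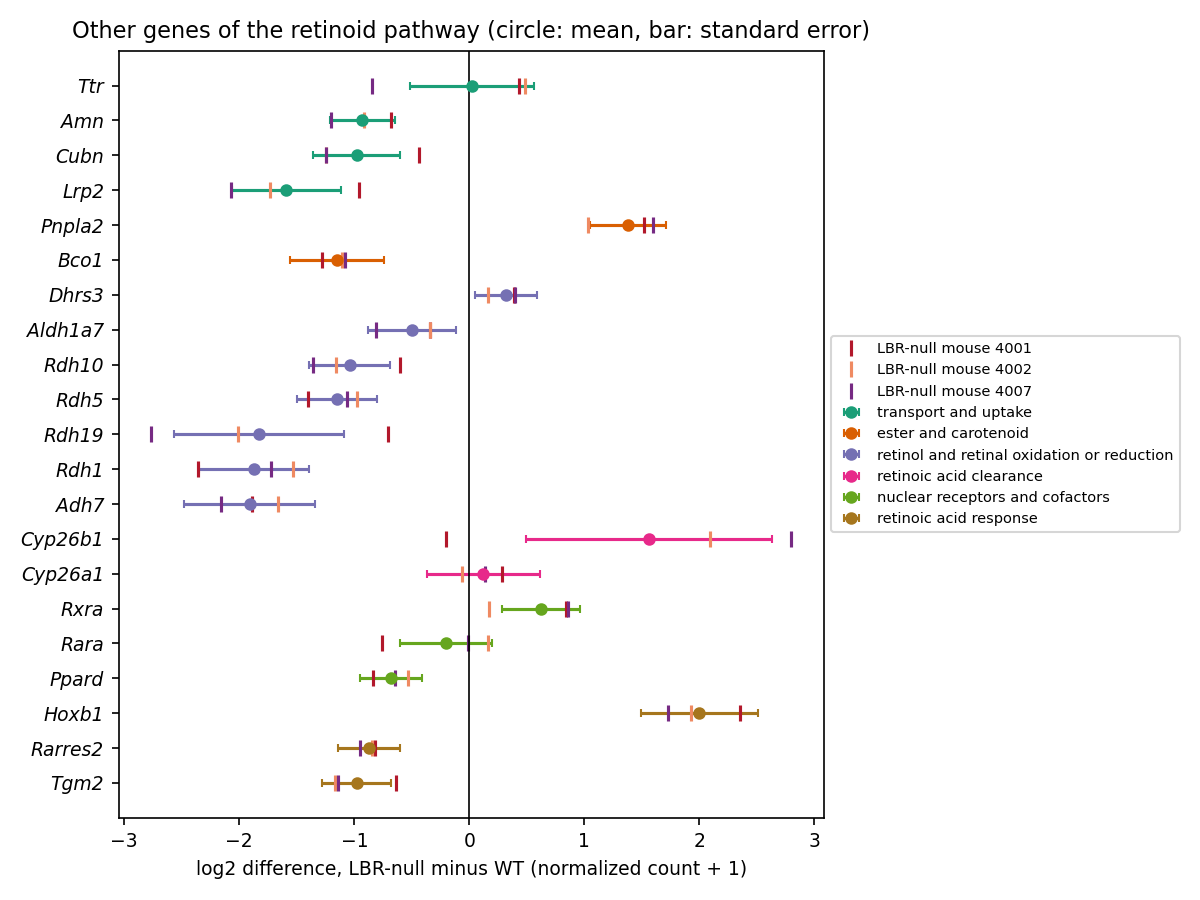
Log2 difference (LBR-null minus WT, normalized count + 1) of the named genes of the pathway other than the 9, with a circle at the mean, a bar of 1 limma standard error, colours for the lists and ticks for the LBR-null mice. Pnpla2 and Hoxb1 have all mice above 0, and Cyp26b1 has mouse 4001 just below 0 and the other two above it.

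Of the 3 enzymes that clear retinoic acid, 2 were tested and 0 passed the unadjusted limit. Cyp26b1 split the LBR-null mice. It was at 50.5 and 49.7 normalized counts in mouse 4001, 249.3 in mouse 4002, 388.4 and 428.4 in mouse 4007, and 55.9 and 59.7 in WT. Mouse 4001 was close to WT and the other two far above, so the log2 difference of 1.56 ± 1.07 (SE) had an adjusted p of 0.481 by limma. Without mouse 4001 it was 2.44, with an adjusted p of 0.0161 by limma, and without mouse 4002 or mouse 4007 it was 1.30 or 0.94 and was not called. Rarb followed the same order of mice as Cyp26b1, lowest in mouse 4001 and highest in mouse 4007. Cyp26a1 was at 11.8 to 21.8 normalized counts in all libraries, with a log2 difference of 0.12 ± 0.49 (SE).

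Of 9 nuclear receptors and cofactors, all tested, 1 was lower, and 0 higher, past the unadjusted limit. This was Ppard, a fatty acid receptor that retinoic acid has been reported to engage, at -0.68 ± 0.27 (SE, adjusted p = 0.253 by limma). Rara was at 421.4 and 400.2 normalized counts in mouse 4001, 780.7 in mouse 4002, 660.3 and 725.5 in mouse 4007, and 700.9 and 693.9 in WT, so only mouse 4001 stood apart. Rxra, the common partner of nuclear receptors, differed by 0.62 ± 0.34 (SE, adjusted p = 0.390 by limma). Of 9 genes known to respond to retinoic acid, 7 were tested, 1 was higher and 2 lower. Hoxb1 was at 31.0 and 40.8 in mouse 4001, 26.6 in mouse 4002, 29.8 and 16.4 in mouse 4007, and 7.1 and 5.4 in WT, with a log2 difference of 2.0 ± 0.51 (SE, adjusted p = 0.122 by limma). Tgm2 (transglutaminase 2) differed by -0.98 ± 0.30 (SE, adjusted p = 0.164 by limma) and Rarres2 (chemerin) by -0.87 ± 0.27 (SE, adjusted p = 0.160 by limma). The 3 responsive genes past the unadjusted limit thus went both ways.

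Markers of other cell types in or around the kidney were summed in each library, as a measure of what else the pieces of tissue held. Of 7 adipocyte markers, 0 were at least 2-fold higher and 4 at least 2-fold lower in LBR-null kidneys, among them Adipoq (13.3 ± 14.3 against 120.3) and Plin1 (7.23 ± 4.43 against 81.5), while the sum, mostly Fabp4, was 5120 to 8743 against 5515 and 5564. Fat cells express Rbp4. Of 8 adrenal cortex markers 5 were at least 2-fold higher, but Cyp11b1, Cyp11b2 and Nr5a1 had at most 3 reads in every library, and the sum was 181.0 to 256.1 against 126.0 and 145.6. Of 7 stroma markers 2 were at least 2-fold higher and 3 lower, with sums of 16920 to 30240 against 40610 and 41460, and the higher ones, Lum and Dcn, were highest in mouse 4001. Lum was at 27.9 to 43.9 in mice 4002 and 4007 against 144.9 and 146.6 in WT, and Dcn was at 2749 in mouse 4002 and at 6229 and 5516 in mouse 4007 against 2740 and 2985 in WT. The sum of 5 podocyte markers was 7877 to 16790 against 19900 and 19950. Of 6 urothelial markers 3 were at least 2-fold lower, with sums of 406.4 to 791.0 against 1148 and 1204. Collecting duct markers had 0 of 6 past 2-fold either way, with sums of 30870 to 55490 against 35180 and 35490. Mesothelial markers had 1 of 5 lower (2403 to 3334 against 3272 and 3306), nephron progenitor and fetal stroma markers 1 of 5 lower (215.6 to 333.6 against 292.2 and 305.5), and macrophage markers 0 of 6 either way (2176 to 2487 against 3133 and 3158). All 6 neutrophil markers in the files (of 7 listed) were at least 2-fold higher, with sums of 368.9 to 2400 against 59.1 and 64.2, lowest among LBR-null libraries in mouse 4002. The part of these cell types in the levels of the 9 genes was not tested.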

How the data were processed

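Per the labels and the study's methods, poly(A) RNA of right kidneys was sequenced as 150 bp read pairs, and the authors mapped them to mm9 (STAR 2.6.0). The signal values that the authors deposited per gene symbol and library are read counts over the library's size factor (DESeq2 1.25.1). The counting program, its annotation and its use of strand are not given in the sources used here. All deposited values were whole multiples of the value of 1 read within 0.01 read (100% of values), so reads were recovered by division.

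Libraries were averaged within a mouse (3 LBR-null mice, 1 WT mouse). The 9 genes and all lists (6 of pathway genes, 13 of markers) were chosen with earlier results of these data known, and the 9 genes carry no test. Named pathway genes are, per list, at most 4 past an unadjusted p of 0.05 by size of difference, and a fixed set (Ttr, Lrp2, Dhrs3, Rdh10, Cyp26a1, Cyp26b1, Rara, Rxra, Aldh1a7 and Lbr), besides genes that DESeq2 called, and some listed genes are not reported here. For Rbp2 and Rbp4 the 3 most correlated genes are named. Mouse means, as log2(normalized count + 1), were fitted with limma 3.58.1 in R 4.3.3, using a trended eBayes step, for the 17283 genes whose mean reached 5. Calls required a Benjamini-Hochberg adjusted p under 0.05 and a 2-fold difference. This leaves 2 residual degrees of freedom and takes WT mice to vary like LBR-null mice. edgeR 4.0.16 and DESeq2 1.42.0 on recovered reads summed per mouse were alternatives. Gene models are GENCODE models of mm9, and promoters are RefSeq sequences of GRCm38.p6 matched to mm9. Counting intervals cover counting error only.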

Additional observations from a re-analysis of the deposited data

Results flagged for a closer look

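Of 31 genes examined, 3 had 1 LBR-null library far from the other 4, by Dixon's criterion, which serves here to pick out values and is no test of the 9 genes, and in each it was the single library of mouse 4002. Stra6 was at 38.7 normalized counts there and at 60.9 to 69.8 in the others, with WT at 44.1 and 42.5. Pnpla2 was at 6176 there and at 8606 to 9463 in the others, with WT at 3048 and 2998. Rxra was at 2509 there and at 3969 to 4105 in the others, with WT at 2250 and 2215. In Pnpla2 and Rxra mouse 4002 lay between the other LBR-null mice and WT, and in Stra6 it lay below WT. Chance flags about 1 in 20 groups, and libraries of a mouse are not independent. The single library of mouse 4002 is set against pairs from the other mice, so it tends to stand apart by construction. Mouse 4002 was also the LBR-null mouse with low Xist and high Ddx3y, and the part of that in these values was not tested.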

How the results depend on the processing

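With 1 WT mouse and 3 LBR-null mice, the spread between WT mice is unknown, and genes with few reads, such as Rbp2 and Adh7, have differences on the log2 scale that depend on the value added. Over 16 alternatives the 9 genes gave 144 values, of which 138 moved by less than 1 SD between LBR-null mice. Those that moved more were Rbp2 with a pseudocount of 5, by edgeR, by DESeq2 and in mouse 4002 alone, and Stra6 and Lrat in mouse 4002 alone. All genes called numbered 28 by edgeR, 1117 by DESeq2, 1 with the second library of each mouse, 1 with the second WT library only, and 0 to 1163 when a LBR-null mouse was left out. Pathway genes called numbered 5 by DESeq2 and 0 to 11 with a mouse left out. Pathway genes higher numbered 5 by DESeq2 and 3 to 4 with a mouse left out, and those lower 5 to 16 with a mouse left out, fewest without mouse 4007. The cause was not tested, though leaving out a mouse also leaves 1 residual degree of freedom. Of the 9 genes, signs turned in Rbp4 (-0.03) and Stra6 (-0.16) in mouse 4002 alone, in Rarb (-0.09) without mouse 4007, and in Aldh1a2 without mouse 4002 (0.13), without mouse 4007 (0.01) and with the first library of each mouse (0.03). Signs also turned in other named genes. The log2 difference of Ttr was -0.01 with TMM scaling, -0.06 with the second library of each mouse, -0.02 with the second WT library only and -0.21 to 0.45 with a mouse left out. That of Cyp26a1 was -0.22 with the first library of each mouse and -0.16 with the first WT library only, and -0.06 in mouse 4002 alone. With a mouse left out, Rara ran from -0.39 to 0.08 (0.16 in mouse 4002 alone) and Lbr from -0.27 to 0.01. No paired analysis was possible because the replicate numbers in the labels mark libraries of the same mouse and do not pair mice across genotypes.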
